A study of Mus musculus with 9 samples.

Results

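Activins are secreted dimers of inhibin beta subunits, follistatins bind such ligands outside the cell, and the activin receptors are the kinases through which activins signal. The 9 genes described here are the subunits Inhba and Inhbb, the binding proteins Fst, Fstl1 and Fstl3, and the receptors Acvr1, Acvr1b, Acvr2a and Acvr2b. They were taken by gene symbol from the platform annotation, and all 9 were found among the 18193 genes with a probe set of their own, with 19 of 34945 such probe sets. A gene with several probe sets is represented by the one with the highest mean over all arrays, called its main probe set, and its other probe sets are described beside it.

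Back skin of neonatal mice at postnatal day 2 was sorted by flow cytometry into 3 populations of about 50000 cells, whose RNA went onto 9 arrays. R3 held GFP+CD133+ cells, labelled as dermal papilla cells of guard, awl and auchene hairs. R2 held GFP-CD133+ cells, labelled as zigzag dermal papilla cells. Cells negative for both markers (GFP-CD133-) made up R1, a mixed dermal pool meant to lack papilla cells. Mice 2, 4 and 5 each gave 1 array per gate. The labels name neither the strain nor what drives GFP, which is taken here to report Sox2, as in Sox2-GFP mice of this kind. CD133 is the protein of Prom1. All 3 gates come from the same mice and so share genotype and age.

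In the canonical pathway, an activin dimer first binds a type II receptor, Acvr2a or Acvr2b, which then activates a type I receptor, chiefly Acvr1b. The receptor phosphorylates SMAD2 and SMAD3, which enter the nucleus with SMAD4. Follistatin wraps around the dimer and blocks it, and Acvr1 is a type I receptor used mainly by BMPs. In skin, activin A, the dimer of the Inhba product, is known as a mesenchymal signal to hair follicle epithelium, and both it and follistatin are known to influence follicle formation and growth.

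The deposited values are log2 expression values between 1.65 and 14.8, with array medians of 6.13 to 6.20. Background was gauged from 44 probe sets of olfactory receptors, whose 95th percentile lay between 5.14 and 5.46, and 16 of the 19 member probe sets stood above it on every array. The gate genes followed the sort, which checks the labels. Sox2 averaged 10.66 in R3, 7.08 in R2 and 4.19 in R1, and Prom1 averaged 10.32 in R3, 11.85 in R2 and 7.43 in R1. Both also stood above the background guide in a gate sorted as negative, Sox2 on all R2 arrays and Prom1 on all R1 arrays. Of 15 dermal papilla markers, a list that includes Sox2 and Prom1, limma called 14 higher in R3 than in R1 and 9 higher in R2 than in R1. The levels of Sox2 and Prom1 follow from the sort, so their part in these counts is no separate check. Markers of other cells also differed between gates. Of 10 endothelial markers 10 were lower in R3 than in R2 (log2 of their summed linear values 9.75 to 10.3 in R3 and 12.1 to 12.4 in R2), and of 8 Schwann and glial markers 7 were higher (12.6 to 12.9 in R3 and 9.50 to 10.1 in R2). All 11 keratinocyte markers were lower in both papilla gates than in R1, at 11.4 to 12.3 in R3 and 11.7 to 11.9 in R2, against 14.5 to 15.1 in R1. In sorted pools, fewer cells of a type and less RNA per cell cannot be told apart.

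The 2 activin subunit genes ran in opposite directions. Inhba, which encodes the subunit of activin A, was far higher in both papilla gates than in the dermal pool. Inhbb, which encodes the subunit of activin B, was highest in the dermal pool, lower in R2 and lowest in R3. Their sequences just before the transcription start are shown because these genes had the widest ranges of gate means, 3.15 for Inhba and 3.35 for Inhbb on the log2 scale. Both are the 250 bases upstream of the start in RefSeq (GRCm38.p6), read 5′ to 3′ on the gene's strand. That of Inhba lies at chr13:16011601-16011850 on the plus strand and that of Inhbb at chr1:119422249-119422498 on the minus strand. Capitals mark matches to the motifs searched on both strands.
Inhba: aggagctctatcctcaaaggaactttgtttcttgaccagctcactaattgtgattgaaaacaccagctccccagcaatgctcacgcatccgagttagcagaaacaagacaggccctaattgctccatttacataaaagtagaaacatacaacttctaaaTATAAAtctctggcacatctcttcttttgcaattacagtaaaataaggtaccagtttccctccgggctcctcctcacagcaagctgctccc
Inhbb: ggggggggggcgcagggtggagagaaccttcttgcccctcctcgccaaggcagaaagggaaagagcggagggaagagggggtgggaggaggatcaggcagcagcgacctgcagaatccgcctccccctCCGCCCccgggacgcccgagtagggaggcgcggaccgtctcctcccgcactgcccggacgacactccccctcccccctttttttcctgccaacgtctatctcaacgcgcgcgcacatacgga

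The window of Inhba was 43.2% G and C and that of Inhbb 68.0%, where the median of all 32851 promoter windows of that length was 52.4%. Of the 7 motifs searched, the Inhba window held a match to the TATA box letters TATAAA on its own strand, 91 bases before the start, and 12.4% of all windows hold it. The Inhbb window held the GC box GGGCGG on the opposite strand, 122 bases before the start, and 32.7% of windows hold it. Neither window held the AP-1 motif TGACTCA (in 4.46% of windows) or TGACGT, the core of the cAMP response element (in 6.47%). The SMAD box CAGAC (in 42.2%), the TCF/LEF motif CTTTGAT (in 3.21%) and the SOX motif ACAATG (in 10.7%) had no match either. No listed motif contains another, and a match is a description and not a binding site. RefSeq entries were matched for 8 of the 9 genes, all but Fst.

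Inhba stood at 12.51, 12.53 and 12.46 in R3 and at 12.50, 12.48 and 12.27 in R2, against 9.46, 9.40 and 9.17 in R1 (log2 value, mice 2, 4 and 5). All 6 papilla arrays lay far above all 3 pool arrays, and the papilla gates overlapped each other. The mean was 12.50 ± 0.04 in R3, 12.42 ± 0.13 in R2 and 9.34 ± 0.15 in R1 (SD, n = 3). Inhba was 8.91-fold higher in R3 than in R1 (log2 difference 3.15, standard error 0.13, limma adjusted p = 2.90e-06). In R2 it was 8.42-fold higher than in R1 (3.07, standard error 0.13, limma adjusted p = 2.71e-06). Between R3 and R2 the difference was 0.08 with a 95% interval of -0.20 to 0.37 (adjusted p = 0.797). The second Inhba probe set stood between 4.18 and 4.55 on all 9 arrays, under the background guide on each, and gives no information on the gates.

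Inhbb stood at 6.56, 6.97 and 6.86 in R3, at 8.35, 8.21 and 8.22 in R2 and at 10.33, 9.98 and 10.13 in R1. The gates did not overlap at all, and the order R3, R2, R1 from low to high held in each of the 3 mice. The mean was 6.80 ± 0.21 in R3, 8.26 ± 0.08 in R2 and 10.14 ± 0.17 in R1 (SD, n = 3). Inhbb fell by 1.46 on the log2 scale in R3 against R2 (2.75-fold lower, standard error 0.15, limma adjusted p = 0.000470). It fell by 1.89 in R2 against R1 (3.70-fold lower, standard error 0.15, limma adjusted p = 5.55e-05) and by 3.35 in R3 against R1 (10.2-fold lower, standard error 0.15, limma adjusted p = 3.53e-06). The dimmer Inhbb probe set gave 4.92 to 5.19 in R3, 5.24 to 5.30 in R2 and 5.44 to 5.92 in R1, the same order near background. Its difference was -0.65 for R3 against R1 (limma adjusted p = 0.0190 over all probe sets), and -0.20 for R3 against R2 and -0.45 for R2 against R1, neither of which passed. The comparisons of R3 and of R2 with R1 use the same R1 arrays.

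**Figure D1:**
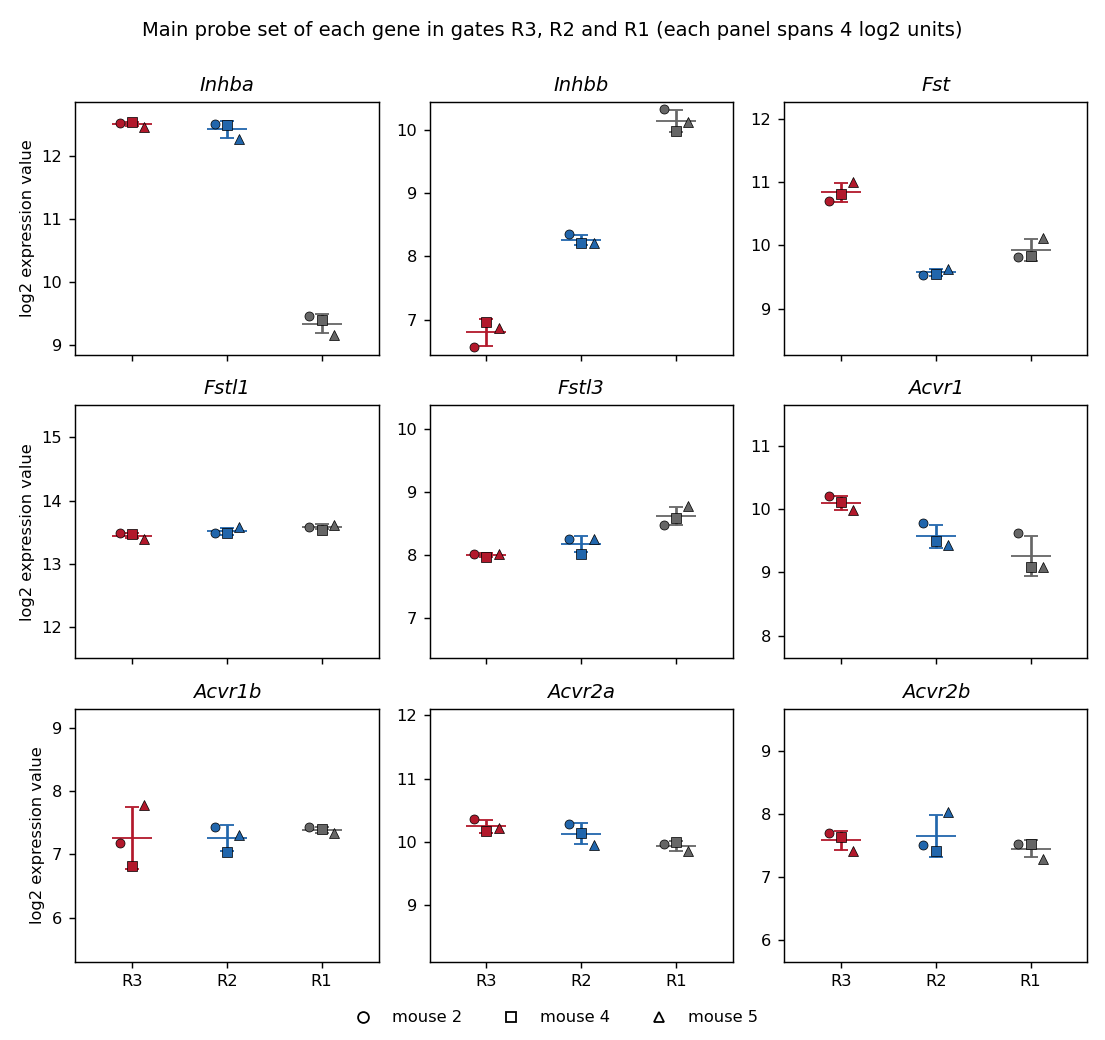
Log2 expression value of the main probe set of each of the 9 genes (vertical axis) in gates R3 (red), R2 (blue) and R1 (grey), with 1 symbol per mouse and bars for the mean and SD of 3 arrays. Inhba averages 12.50 in R3 and 12.42 in R2 against 9.34 in R1, Inhbb steps upward from R3 through R2 to R1, Fst is highest in R3, and Fstl1 lies between 13.39 and 13.62 on all arrays.

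Among the binding proteins, Fst set the papilla gates apart from each other. Fst, which encodes the activin-binding protein follistatin, stood at 10.71, 10.82 and 11.00 in R3 and at 9.53, 9.55 and 9.63 in R2, against 9.82, 9.83 and 10.12 in R1. R3 lay above both other gates on every array, and R2 lay under R1 on every array. The mean was 10.84 ± 0.15 in R3, 9.57 ± 0.05 in R2 and 9.93 ± 0.17 in R1 (SD, n = 3). In R3, Fst exceeded its R2 level 2.41-fold (log2 difference 1.27, standard error 0.13, limma adjusted p = 0.000605) and 1.89-fold higher in R3 than in R1 (0.92, standard error 0.13, limma adjusted p = 0.00129). The difference of R2 from R1 was -0.35 with a 95% interval of -0.65 to -0.05 and did not pass (limma adjusted p = 0.121).

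The second Fst probe set, nearly as bright as the first, stood at 10.72, 10.57 and 10.18 in R3, at 9.64, 9.53 and 8.97 in R2 and at 9.60, 9.53 and 9.39 in R1. It placed R3 above both other gates, by 1.11 against R2 (limma adjusted p = 0.0160 over all probe sets) and by 0.98 against R1 (adjusted p = 0.0104). On this probe set R2 and R1 overlapped, with a difference of -0.12 and a 95% interval that spans 0. The higher level of R3 was thus seen on both probe sets, and the gap between R2 and R1 on the main one.

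Fstl3, a follistatin-like protein that also binds activins, was lower in the papilla gates. It stood at 8.01, 7.97 and 8.02 in R3 and at 8.25, 8.02 and 8.25 in R2, against 8.48, 8.59 and 8.77 in R1. No papilla array reached the lowest pool array. Fstl3 was 1.53-fold lower in R3 than in R1 (log2 difference -0.62, standard error 0.13, limma adjusted p = 0.00768). In R2 it was 1.36-fold lower than in R1 (-0.44, standard error 0.13, limma adjusted p = 0.0476). That call was lost in 14 of 18 alternatives (adjusted p from 0.0285 to 0.161 over all of them), including the omission of any single array and the mouse as a fixed block (adjusted p = 0.0563). R3 and R2 differed by -0.18 (adjusted p = 0.511).

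Fstl1, a secreted glycoprotein related to follistatin in sequence that is known more as a BMP modulator than as an activin inhibitor, was bright in every gate. It averaged 13.45 ± 0.05 in R3, 13.52 ± 0.05 in R2 and 13.58 ± 0.04 in R1 (SD, n = 3), near the upper end of the values on these arrays. Its 95% intervals were -0.30 to 0.17 for R3 against R2, -0.30 to 0.17 for R2 against R1 and -0.37 to 0.10 for R3 against R1. The second Fstl1 probe set, which is less bright, gave 11.66, 11.58 and 11.18 in R3 and 11.52, 11.72 and 11.90 in R2, against 12.03, 12.00 and 12.03 in R1. There R3 lay 0.55 under R1 on the log2 scale (difference -0.55, limma adjusted p = 0.0482 over all probe sets), so the Fstl1 probe sets did not give the same call.

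**Figure D2:**
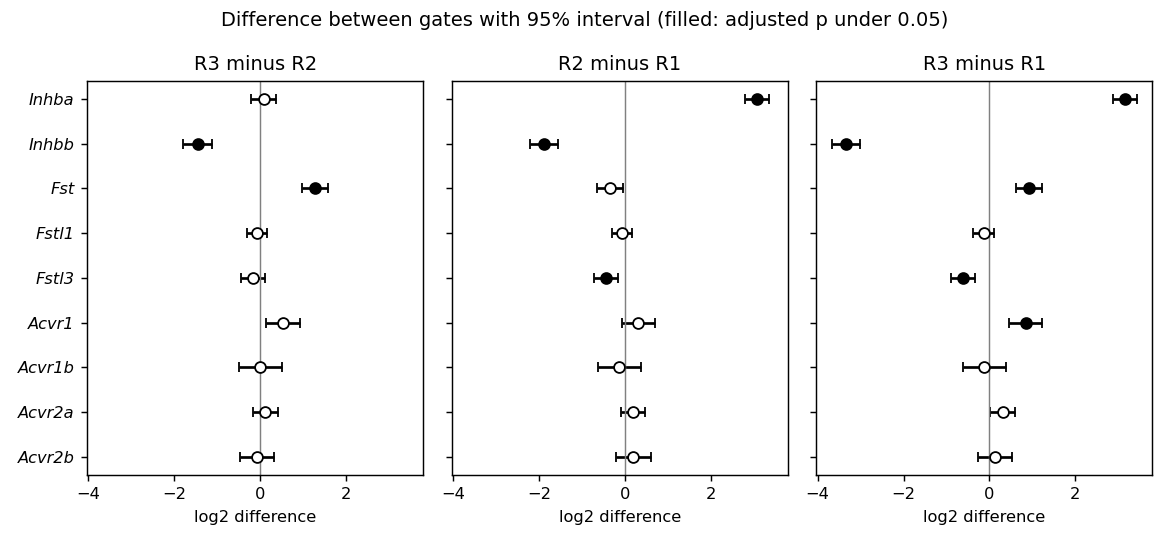
Log2 difference (horizontal axis) of each gene between R3 and R2, R2 and R1, and R3 and R1, with 95% limma intervals and filled points where the adjusted p was under 0.05. Inhba and Inhbb lie far from 0 on opposite sides in both comparisons with R1, while in R3 minus R2 the filled points are those of Inhbb at -1.46 and Fst at 1.27.

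Among the 4 receptors, Acvr1, the type I receptor known chiefly from BMP signalling, was the one whose main probe set was called. It stood at 10.20, 10.11 and 9.99 in R3, at 9.78, 9.50 and 9.44 in R2 and at 9.62, 9.08 and 9.08 in R1. R3 lay above both other gates on every array, while R2 and R1 overlapped through mouse 2 of R1. Acvr1 was 1.79-fold higher in R3 than in R1 (log2 difference 0.84, standard error 0.17, limma adjusted p = 0.00828). The differences of 0.53 between R3 and R2 (adjusted p = 0.133) and of 0.31 between R2 and R1 (adjusted p = 0.292) did not pass.

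The other Acvr1 probe sets are described beside the main one. On the second, the values were 8.54, 8.75 and 8.95 in R3 and 8.66, 8.51 and 8.68 in R2, against 7.81, 7.74 and 7.93 in R1. Here R3 and R2 overlapped and both lay above R1, by 0.92 in R3 (limma adjusted p = 0.00206 over all probe sets) and by 0.79 in R2 (adjusted p = 0.00691). With the mean of all Acvr1 probe sets, the difference of R2 from R1 was 0.45 and passed (adjusted p = 0.0486). The third and dimmest probe set overlapped between all gates, with differences of 0.27 for R3 and 0.26 for R2 against R1. The rise in R3 against R1 was therefore called on 2 of 3 probe sets. Among single probe sets, R2 was called above R1 on the second alone, and on the main one R2 was called apart from neither R3 nor R1.

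Acvr2a, a type II receptor that binds activins, stood at 10.36, 10.17 and 10.21 in R3, at 10.29, 10.14 and 9.96 in R2 and at 9.97, 10.01 and 9.85 in R1. R3 lay above R1 on every array, yet the difference of 0.31 (95% interval 0.02 to 0.59) missed the threshold (limma adjusted p = 0.137). The second Acvr2a probe set gave a like difference of 0.32 for R3 against R1 (adjusted p = 0.172) and placed R2 level with R1, at -0.02. Acvr2b, the other type II receptor, ran from 7.41 to 7.69 in R3, from 7.41 to 8.04 in R2 and from 7.29 to 7.53 in R1, and all gates overlapped. Acvr1b, the type I receptor of activins, ran from 6.82 to 7.79 in R3, from 7.04 to 7.43 in R2 and from 7.33 to 7.43 in R1.

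For Acvr1b the interval of R3 against R1 was -0.63 to 0.38 and for Acvr2b -0.27 to 0.53, so differences of this size remain possible at 3 arrays per gate. The fainter probe sets of both genes stood between 4.93 and 6.57 and none was called in any comparison. One of the fainter Acvr2b probe sets fell under the background guide on 3 of 9 arrays.

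**Figure D3:**
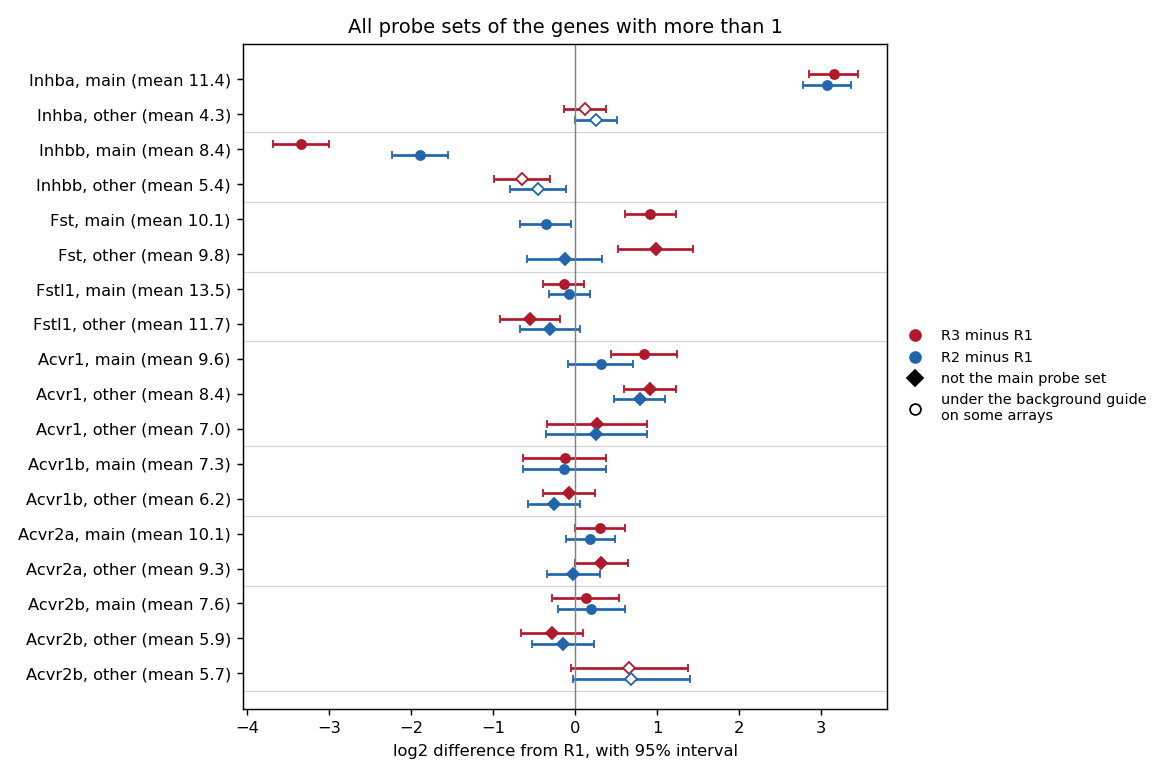
Log2 difference of R3 (red) and R2 (blue) from R1 with 95% intervals (horizontal axis), for every probe set of the 8 genes that have several, labelled with the mean over 9 arrays. Both Fst probe sets place R3 above R1, the second Acvr1 probe set places R2 at 0.79 where the main one places it at 0.31, and the dim second probe set of Inhba lies near 0.

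Counted over the 9 genes, 1 rose and 1 fell in R3 against R2 (22.2%), where limma called 5.03% of all genes, 1.97% higher and 3.06% lower. In R2 against R1, 1 rose and 2 fell (33.3%), where 13.1% of all genes were called, 6.89% higher and 6.16% lower. In R3 against R1, 3 rose and 2 fell (55.6%), where 18.7% of all genes were called, 7.9% higher and 10.8% lower. The arrays were fully separated for 4 of 9 genes in R3 against R2 (22.7% of all genes), for 4 in R2 against R1 (30.8%) and for 7 in R3 against R1 (34.4%). The median log2 difference over the 9 genes was 0.00 in R3 against R2, -0.07 in R2 against R1 and 0.13 in R3 against R1, beside -0.01, -0.02 and -0.01 over all genes. The genes were chosen with results of these arrays known, so these shares are descriptions.

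The beta-actin control for RNA quality and the levels of cell type markers differed between gates beside these results. Marker levels do not separate cell make-up from RNA per cell. Beta-actin controls, whose 3' value exceeds the 5' value more in degraded RNA, gave a 3' minus 5' difference of 0.119 to 0.195 in R3 and 0.106 to 0.216 in R2, against 0.0435 to 0.0691 in R1 (log2). Markers of other cell types differed as well. Beside the level of Inhbb, which was highest in R1, all 11 keratinocyte markers were lower in R2 than in R1. Their summed log2 levels were 11.7 to 11.9 in R2 and 14.5 to 15.1 in R1. Also lower in R2 were 9 of 11 leukocyte and mast cell markers, 5 of 7 melanocyte markers and 5 of 9 fibroblast markers. The sums of these lists were 10.9 to 11.2, 9.63 to 10.3 and 15.5 to 15.7 in R2, against 13.0 to 13.6, 11.1 to 11.6 and 16.2 in R1. Beside the level of Inhba, all 10 endothelial markers were higher in R2 than in R1, with summed log2 levels of 12.1 to 12.4 in R2 and 10.1 to 10.4 in R1. In R3 that sum was 9.75 to 10.3, and 2 endothelial markers were higher and 4 lower than in R1. The sums of the dermal papilla list lay above R1 in both papilla gates, as Inhba did. They were 15.1 to 15.3 in R3, 14.3 to 14.4 in R2 and 13.5 to 13.6 in R1, with Sox2 and Prom1 counted. Adipocyte, skeletal muscle and fibroblast markers all ran in the order of Inhbb. Adipocyte sums were 11.8 to 12.3 in R3, 13.1 to 13.4 in R2 and 13.6 to 13.8 in R1. For skeletal muscle they were 7.76 to 7.93, 8.20 to 8.49 and 9.09 to 9.50 in these gates. Fibroblast sums were 15.45 to 15.51, 15.52 to 15.71 and 16.16 to 16.21. Of 7 skeletal muscle markers, 3 lay under the background guide on all arrays of R3, and 3 on all of R2. Of 5 adipocyte markers, 3 were lower in R3 than in R2, 1 was lower in R2 than in R1 and 5 were lower in R3 than in R1. Schwann and glial markers ran in the order of the main Fst probe set, with summed levels of 12.6 to 12.9 in R3, 10.7 to 11.0 in R1 and 9.50 to 10.1 in R2. For Fst itself, R2 and R1 were not called apart on either probe set, and they overlapped on the second. Of 8 Schwann and glial markers, 5 were higher in R3 than in R1 and 4 were lower in R2 than in R1. Beside Fst and Inhbb in R3 against R2 stood the endothelial and Schwann markers given above and 3 of 9 fibroblast markers that were lower. Of 15 dermal papilla markers, again counting Sox2 and Prom1, 7 were higher and 1 was lower. Under the background guide lay 3 of 10 endothelial markers on all R3 arrays and 2 of 8 Schwann and glial markers on all R2 arrays. The part of any of these in the results was not tested.

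Further genes of the pathway were read from 5 lists. Of 54 listed genes 48 had a probe set of their own, and in R3 against R2 limma called 1 higher and 1 lower (4.17%, near the 5.03% of all genes). In R2 against R1 it called 6 higher and 5 lower (22.9%, beside 13.1% of all genes), and in R3 against R1 it called 9 higher and 6 lower (31.2%, beside 18.7%). Their median log2 difference was 0.03 in R3 against R2 (-0.01 over all genes), 0.06 in R2 against R1 (-0.02) and 0.06 in R3 against R1 (-0.01).

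None of the 8 other ligand and subunit genes measured, among them Inha, the inhibin alpha subunit that pairs with beta subunits to form inhibins, was called in any comparison. Inha averaged 5.65 in R3, 5.80 in R2 and 5.74 in R1, just above the background guide. The type I TGF-beta receptor gene Tgfbr1 stood at 10.58, 10.72 and 10.83 in R3 and at 10.37, 10.30 and 10.48 in R2, against 9.19, 9.35 and 9.66 in R1. Both papilla gates lay above the pool without overlap. Tgfbr1 was 2.49-fold higher in R3 than in R1 (limma adjusted p = 0.000282) and 1.98-fold higher in R2 than in R1 (adjusted p = 0.00215). The type II receptor Tgfbr2 was 1.55-fold lower in R3 than in R1 (adjusted p = 0.0261), and the co-receptor Tgfbr3 was 1.41-fold lower in R2 than in R1 (adjusted p = 0.0428). The Tgfbr2 call was lost in 6 of 18 alternatives, with a log2 difference of -0.31 in place of -0.63 with the mean of all probe sets, and the Tgfbr3 call in 8 of 18. The BMP receptors Bmpr1a and Bmpr2 were 1.45-fold and 1.36-fold higher in R3 than in R1 (adjusted p = 0.0151 and 0.0194). The Bmpr1a call was lost in 2 of 18 alternatives. That of Bmpr2 was lost in 3 of 18, among them the mean of all probe sets (limma adjusted p = 0.135). Of 13 receptors and co-receptors, 4 rose and 2 fell in R3 against R1 (46.2%, beside 18.7% of all genes). In R2 against R1, 1 rose and 1 fell (15.4%, near the 13.1% of all genes). Of 6 other secreted or shed binding proteins, 1 was called in each comparison with R1 (16.7%, near the shares of all genes). This was Tmeff2, a transmembrane protein with follistatin-like domains. It was 3.01-fold lower in R3 and 2.36-fold lower in R2 than in R1 (log2 differences -1.59 and -1.24, limma adjusted p = 0.00228 and 0.0121). With the mean of all its probe sets both calls ended, at log2 differences of -0.40 in R3 and -0.48 in R2 (adjusted p = 0.170 and 0.125).

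Of 18 SMAD transducers and regulators, 5 rose and 1 fell in each comparison with R1 (33.3%, beside 13.1% of all genes in R2 against R1 and 18.7% in R3 against R1). Skil, which encodes the SMAD co-repressor SnoN, stood at 11.15, 11.23 and 11.45 in R3 and at 10.71, 10.92 and 10.92 in R2, against 9.72, 9.62 and 10.17 in R1. It was 2.71-fold higher in R3 (limma adjusted p = 0.000342) and 2.02-fold higher in R2 (adjusted p = 0.00361) than in R1. Smurf2, a ubiquitin ligase that acts on SMADs and receptors, was the one gene of this list called between the papilla gates, 1.61-fold higher in R3 than in R2 (adjusted p = 0.00848). It was also 2.25-fold higher in R3 and 1.40-fold higher in R2 than in R1 (adjusted p = 0.000143 and 0.0234). Pmepa1, a membrane protein that restrains TGF-beta signalling, was 1.59-fold higher in R3 and 1.69-fold higher in R2 than in R1 (adjusted p = 0.00456 and 0.00334). Trim33, a ubiquitin ligase of SMAD4, was 1.53-fold higher in R2 and 1.49-fold higher in R3 than in R1 (adjusted p = 0.0207 and 0.0200). Each of these calls was lost in 4 of 18 alternatives, among them the mean of all probe sets. Dab2, an adaptor protein, was 2.34-fold lower in R3 and 1.70-fold lower in R2 than in R1 (adjusted p = 0.00333 and 0.0424). The Dab2 call in R2 against R1 was lost in 7 of 18. The signal transducers Smad2, Smad3 and Smad4 were not called in any comparison.

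Of 9 measured transcripts known to rise on activin or TGF-beta signalling, 3 rose and 2 fell in each comparison with R1 (55.6%, beside the same shares of all genes). Skil and Pmepa1, which belong to both lists, rose in both. Besides them, Smad7, an inhibitory SMAD, was called higher in R2 than in R1 (1.63-fold, limma adjusted p = 0.0344) and the pseudoreceptor gene Bambi higher in R3 than in R1 (1.84-fold, adjusted p = 0.0308), both named here after their values were seen. Between R3 and R2 neither was called (log2 difference -0.50 for Smad7, adjusted p = 0.182, and 0.67 for Bambi, adjusted p = 0.169). The Smad7 call was lost in 7 of 18 alternatives and the Bambi call in 6 of 18. The matrix protein gene Tgfbi fell by 1.10 in R3 and by 1.41 in R2 against R1 on the log2 scale (adjusted p = 0.00133 and 0.000454). Ltbp2, a microfibril-associated protein, stood at 5.51, 5.67 and 5.87 in R3, at 8.06, 7.91 and 7.81 in R2 and at 8.64, 8.57 and 8.37 in R1. It fell by 2.24 in R3 against R2 (limma adjusted p = 2.36e-05), by 2.85 in R3 against R1 (adjusted p = 3.88e-06) and by 0.60 in R2 against R1 (adjusted p = 0.0212). The R3 values of Ltbp2 lay near the background guides of 5.14 to 5.30 on those arrays, so background limits what the size of the fall in R3 can show. The members of this list thus moved both ways against the pool.

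**Figure D4:**
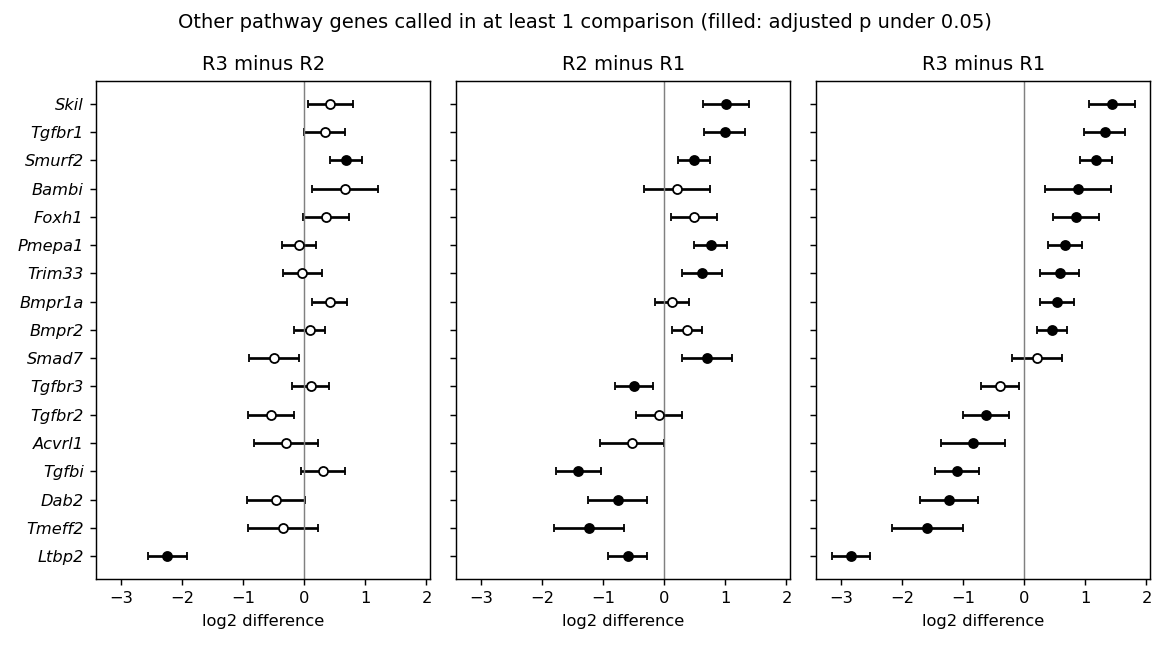
Log2 difference (horizontal axis) with 95% limma intervals for the 17 other pathway genes called in at least 1 comparison, filled where the adjusted p was under 0.05. Skil, Tgfbr1 and Smurf2 lie highest in R3 minus R1, Ltbp2 lies lowest at -2.85, and in R3 minus R2 the filled points are those of Smurf2 and Ltbp2.

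The pathway calls were less firm than those of the activin subunits. In R2 against R1 the calls of Tgfbr1, Skil, Pmepa1 and Tgfbi were kept in all 18 alternatives, and the other 7 were lost in 1 to 8 of them. Of the 11 called genes, 6 kept the call without mouse 2 of R1, 6 without mouse 4 of R1, 7 without mouse 5 of R1, 5 without mouse 4 of R2 and 6 without mouse 5 of R2. In R3 against R1 the calls of Tgfbr1, Skil, Smurf2, Dab2, Pmepa1, Tgfbi and Ltbp2 were kept in all 18, and the other 8 were lost in 1 to 6. Without mouse 4 of R3, 9 of the 15 kept the call.

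The genes most like the 3 members with the widest range were found by the root mean square difference of gene-centred log2 values over the 9 arrays, where 0 would be an identical pattern. For Inhba these were Col11a1 (0.14), Hey2 (0.22) and Gfra1 (0.29). Col11a1, a fibrillar collagen chain, averaged 10.88 in R3, 10.66 in R2 and 7.87 in R1. For Inhbb they were Agtr2 (0.23), Enho (0.24) and Kcnj8 (0.24). Agtr2, an angiotensin II receptor gene, averaged 7.15 in R3, 8.52 in R2 and 10.76 in R1, stepping up in the same order. For Fst they were Nr3c2 (0.18), Kcna6 (0.18) and Dusp10 (0.18), of which Dusp10, a MAP kinase phosphatase gene, averaged 9.66 in R3, 8.72 in R2 and 9.05 in R1. The 9 arrays share mice and gates, and no independent samples enter this likeness.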

How the data were processed

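The authors deposited log2 expression values for 45101 probe sets on 9 1-colour arrays, and the submitters' processing notes name RMA. The RMA software, its version and the set of arrays it was run on are not stated by the labels. Per the labels' protocols, total RNA came from a PureLink kit, and amplification used WT-Ovation Pico chemistry before biotin labelling. Quantile steps of RMA can hide changes shared by most genes and compress folds, and no detection call comes with the values.

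The platform annotation gave the gene names. Leaving aside 64 controls, 34945 probe sets had 1 symbol, 932 several and 9160 none, and 34741 of the first kind matched a RefSeq table (GRCm38.p6) by gene ID, with 0 symbols updated. Listed genes that lack their own probe set were left out. Groups and mouse numbers came from the labels. The test was limma (version 3.58.1, under R 4.3.3; functions lmFit, contrasts.fit, eBayes), fitted to all 9 arrays with a mean for each gate, no block and no filter, and Benjamini-Hochberg adjustment over 18193 genes in each comparison, with calls at an adjusted p under 0.05. Single probe sets were adjusted over all 34945. Arrays that carry 1 number come from 1 mouse, which pairs them: deviations from gate means correlated at 0.0068 to 0.177 within a mouse (mean 0.085) and at -0.157 to 0.041 between mice (mean -0.043). The 3 mice are separate animals, and the number of arrays limits the precision.

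The members and lists were chosen with earlier results of these data known. The named genes were the 9 members with every probe set, up to 4 called genes with the lowest p per pathway list and comparison (Smad7, Bambi, Acvrl1, Inha and Smad2, Smad3 and Smad4 are named outside this rule), the gate genes, and the 3 genes most like each of the 3 members with the widest range. The alternatives were other uses of the probe sets, the mouse as a block, omission of each array, 6 arrays alone, median centring, quantile normalization again, brighter genes only, and a trend with robust variance. Python 3.11.15 with pandas 2.3.3 and matplotlib 3.10.9 drew the plots.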

Additional observations from a re-analysis of the deposited data

How the results depend on the processing

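For the 9 members, 486 differences were recomputed over 18 alternatives and 3 comparisons. Of these, 471 kept the direction of any call and their side of the threshold, 14 lost a call (each of them Fstl3 in R2 against R1), 1 gained one (Acvr1 in R2 against R1, with the mean of all probe sets) and 0 calls turned their direction. The members called numbered 2 under every alternative in R3 against R2 and 5 in R3 against R1, and 2 to 4 in R2 against R1, where each omission of an array left 2. With the mouse as a fixed replicate block the members called were 2 in R3 against R2, 2 in R2 against R1 and 5 in R3 against R1. Beside Fstl3, the fixed block ended the call of 1 of the called pathway genes, Acvrl1 in R3 against R1 (limma adjusted p = 0.0618), and changed no other called gene's call. With the mean of all probe sets, differences of genes with a dim second probe set shrank, that of Inhba in R2 against R1 to 1.66 and that of Inhbb in R3 against R1 to -2.00.

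The pathway genes called in R3 against R2 numbered 5 with the mean of all probe sets and 4 with a trend and robust variance, and 2 to 3 with 1 array left out. In R2 against R1 they numbered 5 to 11 with 1 array left out. Over the whole table, leaving out 1 array gave 582 to 841 genes in R3 against R2, where all 9 arrays gave 915, and 1554 to 2418 in R2 against R1, where all gave 2375. Leaving out an array leaves fewer samples in the fit. Signals under about 5.46, the highest background guide, limit what the dim probe sets of Inhba, Inhbb and Acvr2b can show.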
